A study of Mus musculus with 4 samples.

Results

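The genes described here are the enzymes that write and remove DNA methylation and their closest cofactors, Dnmt1, Dnmt3a, Dnmt3b, Dnmt3l, Uhrf1, Tet1, Tet2 and Tet3. They were chosen by function, and all 8 were present among the 16639, 16341 and 18640 genes counted in the libraries of the 3 stages. In cells DNA methylation is copied after replication by the maintenance methyltransferase Dnmt1, which Uhrf1 brings to hemimethylated DNA. New methylation is laid down by Dnmt3a and Dnmt3b, and Dnmt3l is a relative without catalytic activity that assists them. The Tet enzymes oxidise methylcytosine, which leads to its removal. In the mouse, the epiblast gains methylation around implantation, while the extraembryonic tissues are known to keep a lower level of it.

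Single-cell transcriptomes of whole mouse embryos were available at 3 stages of gastrulation, the mid to late streak (MS-LS, dissected at E6+21h), the no bud to early bud (OB-EB, E7+3h) and the early head fold (EHF, E7+14h). All embryos had the genotype TnEGP-CreERT2/+; R26Rtdtomato/R26Rtdtomato, in which the endogenous T gene of primitive streak cells also drives a tamoxifen-dependent Cre and a nuclear green fluorescent protein, and recombination switches on the tdTomato reporter. Tamoxifen had been given by gavage at 0.08 mg per body weight, at E6+5h for MS-LS, at E6+21h for OB-EB and at E7+7h for EHF, so every group below shares these alleles and this dose, while the time from tamoxifen to dissection differed between the stages. Each stage was 1 library of cells from several embryos, so stage, library and the set of embryos cannot be told apart, and cells are not replicates. For this reason no test between groups was made.

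The 3 libraries held 3635, 3994 and 3494 cells with 17966956, 12181436 and 20376539 UMIs (unique molecular identifiers, each 1 captured transcript), and the median cell had 4251, 2620.5 and 5584 UMIs. Cells of each library were clustered without the 8 genes and without the genes of related pathways, and clusters were named from marker genes. This gave 28 named classes, 7 in MS-LS, 7 in OB-EB and 14 in EHF, and left 914, 1543 and 722 cells in unnamed clusters. Names end in "-like" since they rest on markers alone. Trophoblast below means extraembryonic ectoderm-like cells (538, 245 and 481 cells by stage), visceral endoderm means visceral and yolk sac endoderm-like cells (676, 327 and 333 cells), and embryonic cells are all ectoderm, mesendoderm and mesoderm classes of the embryo proper (1432, 1599 and 1416 cells). The 8 extraembryonic ectoderm markers summed to 649, 499 and 899.6 UMIs per 1000000 UMIs in trophoblast and to 9.81, 7.69 and 16.4 in embryonic cells. The same markers were used to name the clusters, so these sums describe the groups and cannot check their names.

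Levels are in CPM, the number of UMIs of a gene among 1000000 UMIs of all genes, after summing over the cells of a group, with an exact Poisson 95% interval in brackets. Ratios between groups are log2 ratios of CPM with an exact 95% interval, and a difference was called where it was at least 2-fold and the gene had at least 100 UMIs over both groups. These intervals and the binomial intervals of shares cover counting error only. Fewer transcripts per cell and a smaller fraction of cells with transcripts are both contained in a level, so shares of cells are given where they differ.

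On the GRCm38 build, Dnmt1 lies at chr9:20907209-20959888 on the minus strand, Dnmt3a at chr12:3806007-3914443, Dnmt3b at chr2:153649450-153687730, Dnmt3l at chr10:78041947-78063622 and Uhrf1 at chr17:56303321-56323486, all on the plus strand. Tet1 lies at chr10:62804570-62908996, Tet2 at chr3:133463679-133545139 and Tet3 at chr6:83362373-83459084, all on the minus strand. Genes annotated on the opposite strand overlap Dnmt3a (Dnmt3aos, 2952 bases), Dnmt3b (Dnmt3bos, 837 bases), Dnmt3l (Aire, 1664 bases), Tet2 (Gm42567, 43 bases) and Tet3 (B230319C09Rik, 6568 bases), and the strand setting of the counting was not given in the sources used here.

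The start regions of Dnmt3b and Dnmt3l are shown because the differences between classes below turn on these genes, and because CG dinucleotides are the sites that these enzymes methylate. Each window runs from 250 bases before to 50 bases after an annotated start in RefSeq (GRCm38.p6), read 5′ to 3′ on the plus strand of the genome, and capitals mark CG.
Dnmt3b chr2:153649199-153649498: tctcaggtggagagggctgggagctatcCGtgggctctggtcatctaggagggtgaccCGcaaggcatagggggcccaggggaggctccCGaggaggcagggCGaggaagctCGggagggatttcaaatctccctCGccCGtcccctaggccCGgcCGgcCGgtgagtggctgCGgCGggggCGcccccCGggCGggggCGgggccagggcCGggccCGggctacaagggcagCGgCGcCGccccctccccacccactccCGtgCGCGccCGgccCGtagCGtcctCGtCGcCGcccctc
Dnmt3l chr10:78042037-78042336: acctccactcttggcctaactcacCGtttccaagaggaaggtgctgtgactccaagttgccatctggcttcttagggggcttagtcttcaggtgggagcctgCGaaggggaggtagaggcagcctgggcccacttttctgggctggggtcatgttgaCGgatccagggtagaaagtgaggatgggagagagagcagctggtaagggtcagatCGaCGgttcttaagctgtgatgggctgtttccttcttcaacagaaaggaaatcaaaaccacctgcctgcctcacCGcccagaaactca
Dnmt3l chr10:78049592-78049891: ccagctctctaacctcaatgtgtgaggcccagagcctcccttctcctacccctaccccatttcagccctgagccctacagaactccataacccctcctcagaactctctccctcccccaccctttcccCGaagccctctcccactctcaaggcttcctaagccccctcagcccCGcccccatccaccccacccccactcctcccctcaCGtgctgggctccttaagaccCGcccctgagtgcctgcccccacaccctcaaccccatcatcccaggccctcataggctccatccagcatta
Dnmt3l chr10:78055085-78055384: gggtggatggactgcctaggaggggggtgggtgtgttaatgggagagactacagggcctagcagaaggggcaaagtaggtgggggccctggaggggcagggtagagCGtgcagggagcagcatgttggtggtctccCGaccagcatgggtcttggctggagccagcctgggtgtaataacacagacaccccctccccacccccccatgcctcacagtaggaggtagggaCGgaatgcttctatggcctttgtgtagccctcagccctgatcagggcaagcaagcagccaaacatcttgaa
The Dnmt3b window held 30 CG, and 11.7% of the 32851 windows of all genes held as many. The windows of Dnmt3l held 6, 4 and 3 CG, which 56.4%, 68.6% and 76.7% of windows reached, against a median of 7 over all windows. Among the other members the richest window was that of Tet2 with 57 CG, a number reached by 0.152% of windows. These counts describe the letters of the windows, and methylation itself was not measured in these libraries.

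**Figure D1:**
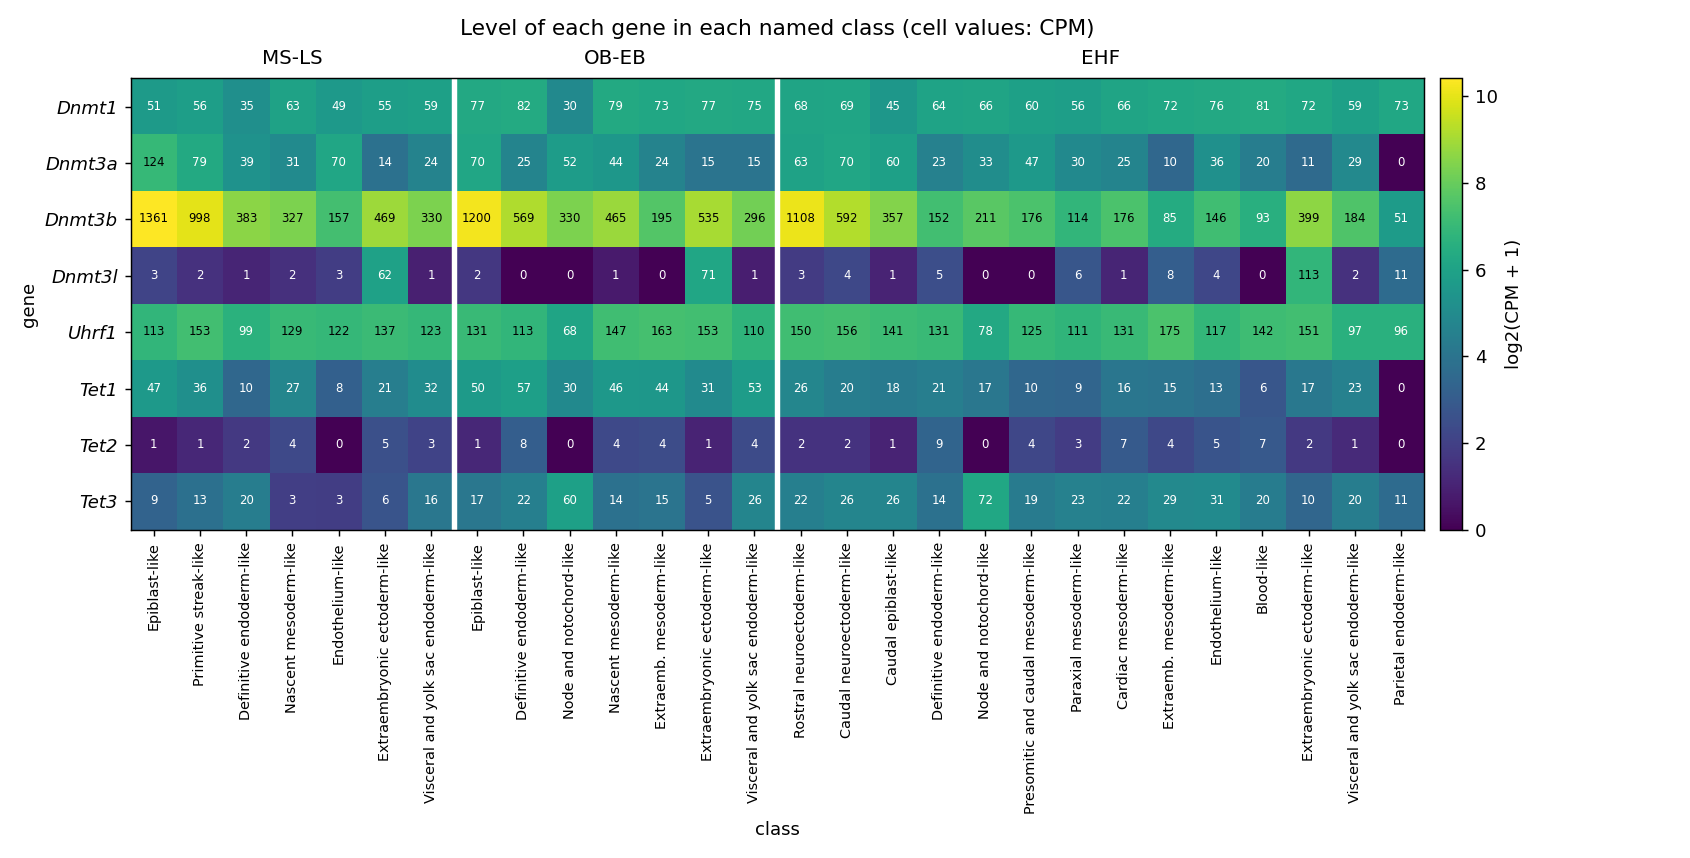
Level of each of the 8 genes (rows) in each of the 28 named classes (columns, grouped by stage), coloured by log2(CPM + 1) and printed in CPM, with 1 library per stage. Dnmt3b is highest in the epiblast-like classes (1361 and 1200.0 CPM) and the rostral neuroectoderm-like class (1108 CPM), Dnmt3l stands out in the extraembryonic ectoderm-like classes, and Dnmt1 and Uhrf1 are found in every column.

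The maintenance pair had no called difference in any comparison between groups. Dnmt1 had 55.4, 77.1 and 71.9 CPM in trophoblast at MS-LS, OB-EB and EHF, 59.4, 74.7 and 58.6 CPM in visceral endoderm, and 52.8, 76.7 and 62.4 CPM in embryonic cells. Its highest class was the definitive endoderm-like class of OB-EB with 82.1 CPM, and its lowest the node-like class of the same stage, which rests on 4 UMIs. No neighbours in the order of classes differed beyond counting error in any of the 3 libraries, while classes farther apart did, such as nascent mesoderm-like (63.0 CPM [51.8 to 75.9]) and definitive endoderm-like cells (35.2 CPM, on 31 UMIs) at MS-LS, whose intervals did not overlap. The log2 ratio of trophoblast over embryonic cells was 0.069 [-0.20 to 0.33], 0.007 [-0.37 to 0.37] and 0.20 [-0.018 to 0.42], so a 2-fold difference of Dnmt1 lay outside the counting interval at each stage.

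Uhrf1, the partner that guides Dnmt1 to newly replicated DNA, had 137, 153 and 151 CPM in trophoblast, 123, 109.6 and 96.6 CPM in visceral endoderm, and 123, 131 and 137 CPM in embryonic cells. It ranged from 67.5 CPM in the node-like class of OB-EB to 175 CPM in the extraembryonic mesoderm-like class of EHF, and again no neighbours in the order differed beyond counting error. At EHF the interval of that class, 147 to 207 CPM, lay above that of visceral endoderm, 84.1 to 110.3 CPM. In EHF, Uhrf1 had a ratio of visceral endoderm over embryonic cells of -0.50 [-0.72 to -0.29], less than 2-fold.

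Because replication is the time at which maintenance acts, cells of each group were split by whether their UMIs leaned to a list of S phase genes or to a list of G2 and M phase genes, neither of which holds a member. Uhrf1 was higher in the S-leaning cells in 15 of the 16 groups with enough UMIs, and in 8 of them beyond counting error. The median log2 ratio was 0.38, from -0.17 in OB-EB trophoblast to 0.94 [0.54 to 1.34] in EHF visceral endoderm, where Uhrf1 had 141 CPM in S-leaning and 73.7 CPM in G2/M-leaning cells. In trophoblast the ratio stayed within counting error at every stage (0.12, -0.17 and 0.13).

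Dnmt1 showed no such difference: it was higher in S-leaning cells in 6 of 12 groups, in none of them beyond counting error, with ratios from -0.26 to 0.41. For Dnmt3b 3 of 17 groups were higher and 2 lower in S-leaning cells beyond counting error, with a median of 0.045. S-leaning cells often had fewer UMIs than G2/M-leaning cells of the same group, for example a median of 5794 against 6628.5 UMIs in EHF visceral endoderm, and the part of depth in these ratios was tested only with a minimum of 2000 UMIs per cell, under which no ratio left its interval.

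**Figure D2:**
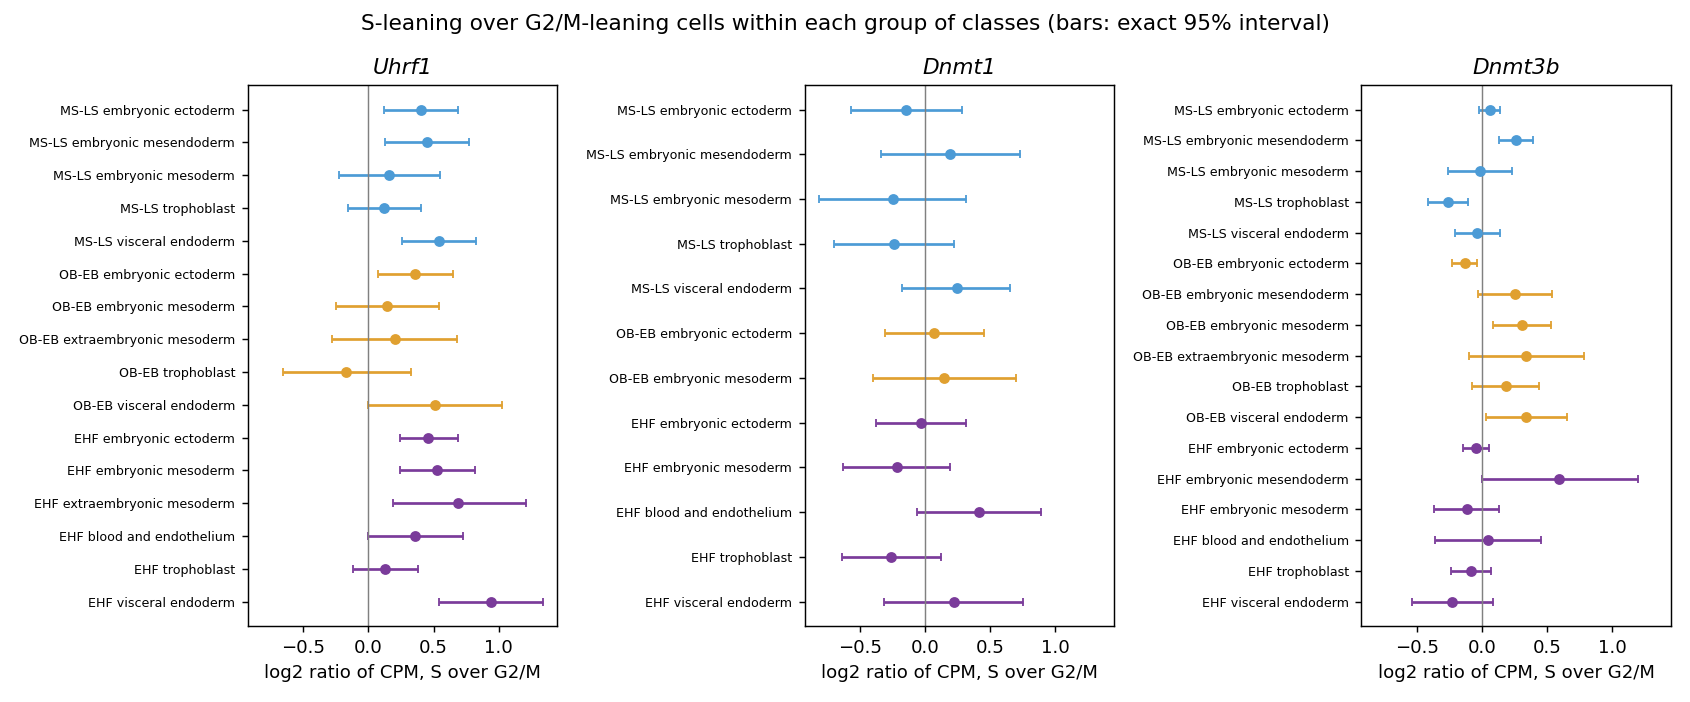
Log2 ratio of CPM between S-leaning and G2/M-leaning cells of the same group for Uhrf1, Dnmt1 and Dnmt3b, in each group with at least 100 UMIs, with exact 95% intervals and colours by stage. Most Uhrf1 points lie right of 0 (15 of 16 groups), whereas Dnmt1 points lie on both sides with intervals that all include 0.

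Of the de novo enzymes, Dnmt3b was counted most deeply, with 11837, 7524 and 6627 UMIs by stage, and its classes were the best separated. It was highest in the epiblast-like class of MS-LS with 1361 CPM [1324 to 1399] and of OB-EB with 1200.0 CPM [1162 to 1239]. At MS-LS the primitive streak-like class followed with 998 CPM and trophoblast with 469 CPM, while nascent mesoderm-like cells had 327 CPM and endothelium-like cells 157 CPM. Each of the first 4 steps of this order was beyond counting error, and visceral endoderm (330.2 CPM) and nascent mesoderm did not differ beyond it.

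In EHF, whose ectoderm clusters were named neuroectoderm and caudal epiblast, Dnmt3b was 1108 CPM [1056 to 1161] in rostral neuroectoderm-like, 592 CPM in caudal neuroectoderm-like and 357 CPM in caudal epiblast-like cells. Trophoblast, with 399 CPM [378 to 420.2], was below caudal neuroectoderm and within counting error of caudal epiblast. All other classes of EHF were at 211 CPM or below, down to 50.8 CPM in parietal endoderm-like cells, which rests on 9 UMIs. From the node-like class downward, no neighbours differed beyond counting error.

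After each cell was thinned to 1500 UMIs, 84.4% of MS-LS epiblast-like cells [81.5 to 86.9] had a Dnmt3b UMI, against 35.3% of nascent mesoderm-like, 45.5% of trophoblast and 30.6% of visceral endoderm cells. Without thinning the shares were 98.6%, 67.4%, 78.4% and 63.6%. Epiblast-like cells thus stood apart from these classes by share as well as by level. The primitive streak-like class, next to them by level with 998 CPM, was not among the classes compared by share. Clusters of a class were not uniform: the 3 epiblast-like clusters of MS-LS had 1128, 1167 and 1786 CPM of Dnmt3b and those of OB-EB 716, 1223 and 1829 CPM, the highest being in each case the cluster of deepest cells. The 2 trophoblast clusters of MS-LS had 325 and 609 CPM, at median depths of 4102 and 7898 UMIs.

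Dnmt3a was also highest in the embryonic ectoderm but was low in trophoblast. Its level in the epiblast-like class was 124 CPM [113 to 136] at MS-LS and 70.0 CPM [61.1 to 79.8] at OB-EB, and in EHF it was 69.8 CPM in caudal and 63.1 CPM in rostral neuroectoderm-like cells. In trophoblast it was 13.7 [9.86 to 18.5], 15 and 11.2 CPM, the lowest of the 7 classes at MS-LS. In EHF, extraembryonic mesoderm-like cells were as low (10.1 CPM, 8 UMIs) and no UMI was found in 64 parietal endoderm-like cells, where the exact interval reached 20.8 CPM.

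Dnmt3l was set apart by class more than any other member. It had 61.5 CPM [53.1 to 71.0], 70.7 CPM [54.6 to 89.9] and 113 CPM [102 to 125] in trophoblast at the 3 stages. In the other 6 classes of MS-LS it lay between 0.886 and 3.45 CPM, in the other 6 of OB-EB between 0 and 2.21 CPM, and in all other classes of EHF between 0 and 11.3 CPM. The step from trophoblast to the next class was beyond counting error in each library, and no later step was. The 2 trophoblast clusters of MS-LS had 62.8 and 60.3 CPM and the 3 of EHF had 135, 115 and 79.3 CPM.

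In cells thinned to 1500 UMIs, Dnmt3l was found in 9.21% [6.89 to 12.0], 11.5% [7.74 to 16.3] and 13.8% [10.8 to 17.2] of trophoblast cells. In embryonic cells, taken as the reference, it was found in 0.491%, 0.133% and 0.142%. Thinning left out 6, 11 and 2 trophoblast cells and 6, 91 and 11 embryonic cells with fewer UMIs. The unthinned shares were 25.8%, 22.0% and 53.2% against 1.26%, 0.500% and 1.62%, at median depths of 4838, 3035 and 7123 UMIs in trophoblast and 4946, 2931 and 5775 UMIs in embryonic cells.

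The few Dnmt3l UMIs of embryonic cells (20, 8 and 23) were set beside the UMIs of the 8 trophoblast markers in the same cells. Trophoblast had 9.48, 14.2 and 12.6 Dnmt3l UMIs per 100 marker UMIs, embryonic cells 25.3, 19.0 and 16.2, and visceral endoderm 2.17, 2.04 and 2.50. The embryonic ratio was above the trophoblast ratio beyond counting error at MS-LS (log2 1.42 [0.67 to 2.08]) and within it at OB-EB (0.43 [-0.84 to 1.49]) and EHF (0.37 [-0.31 to 0.97]). In visceral endoderm it was below that of trophoblast at each stage, by log2 ratios of -2.13, -2.79 and -2.33, on 3, 1 and 4 Dnmt3l UMIs.

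**Figure D3:**
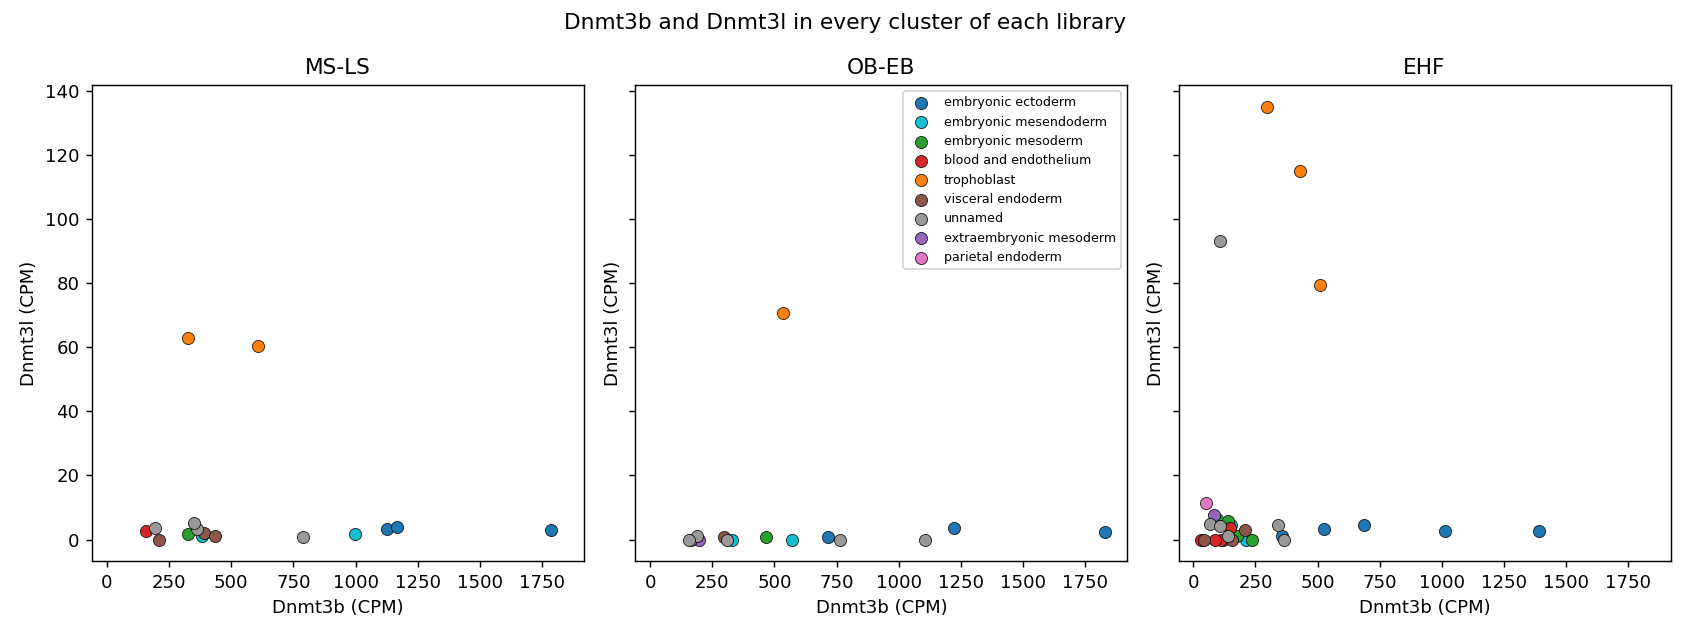
Level of Dnmt3b (x axis, CPM) and of Dnmt3l (y axis, CPM) in every cluster of each library, 1 point per cluster, coloured by the group of its class. Trophoblast clusters lie high on the Dnmt3l axis at 60.3 to 135 CPM with intermediate Dnmt3b, while embryonic ectoderm clusters reach 1786, 1829 and 1392 CPM of Dnmt3b close to 0 on the Dnmt3l axis.

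The erasers were sparse. Tet1 had 36.1, 49.4 and 17.6 CPM in embryonic cells, 21.2, 31.0 and 17.2 CPM in trophoblast and 32.2, 53.1 and 22.8 CPM in visceral endoderm. At MS-LS it was highest in the epiblast-like class with 46.7 CPM [40.0 to 54.1] and lowest in endothelium-like cells with 8.13 CPM on 3 UMIs. In EHF no neighbouring classes differed beyond counting error, from 26.2 CPM in rostral neuroectoderm-like cells down to no UMI in parietal endoderm-like cells.

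Tet3 had 9.02, 16.7 and 24.5 CPM in embryonic ectoderm, 2.84, 13.9 and 21.1 CPM in embryonic mesoderm, and 5.54, 5.35 and 9.77 CPM in trophoblast. The node-like class had the highest level at these later stages, with an interval of 25.9 to 118 CPM at OB-EB and 72.1 CPM [38.4 to 123] at EHF, from 8 and 13 UMIs in 51 and 44 cells. At EHF the step from the node-like class to the next, endothelium-like cells with 31.0 CPM, was beyond counting error, and at OB-EB the step to visceral endoderm (25.7 CPM) was not. Tet2 had 44, 37 and 57 UMIs in all cells of the 3 libraries, and at most 9.18 CPM in any class. It never reached the minimum of 100 UMIs in a comparison. In the comparisons between groups, the log2 ratios of Tet2 whose interval lay away from 0 were those of MS-LS trophoblast over embryonic cells, 1.60 [0.43 to 2.79] on 15 and 13 UMIs, and of MS-LS mesoderm over ectoderm, 2.90 [0.51 to 6.21] on 7 and 2 UMIs.

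**Figure D4:**
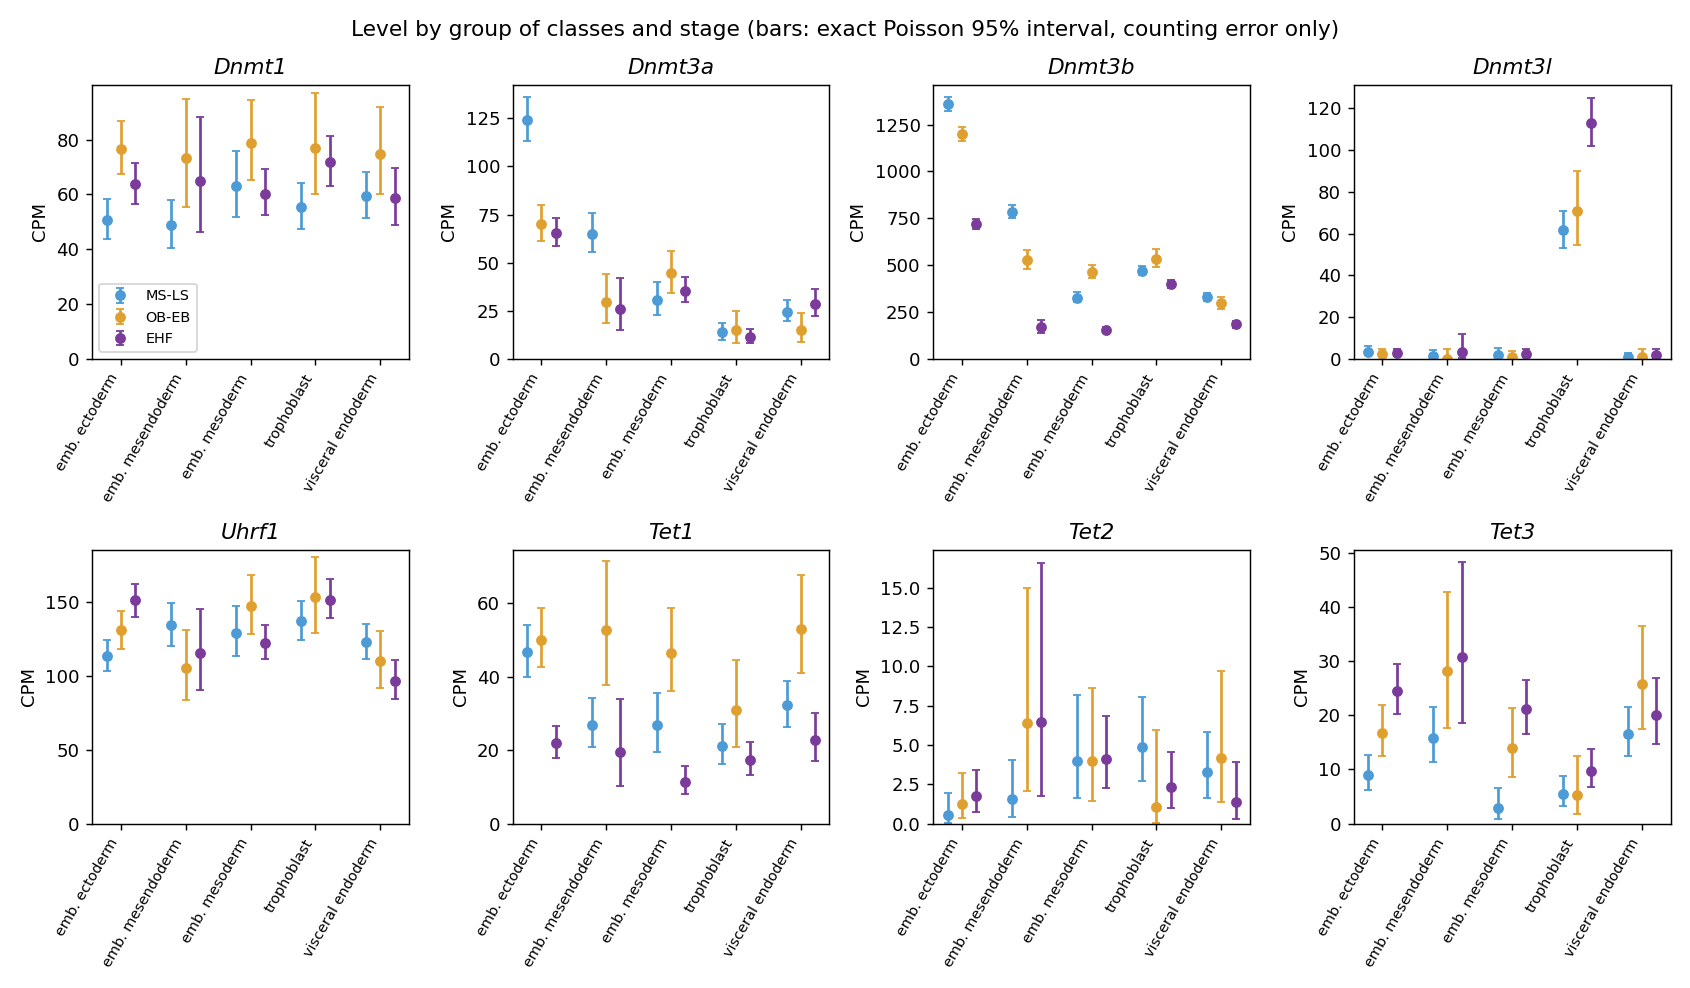
Level of each gene in CPM (y axis, starting at 0) in 5 groups of classes (x axis) at each stage (colour), with exact Poisson 95% intervals and 1 library per stage. Dnmt3b and Dnmt3a are highest in embryonic ectoderm at MS-LS, Dnmt3l in trophoblast at all 3 stages, and Tet3 is higher in embryonic ectoderm at EHF (24.5 CPM) than at MS-LS (9.02 CPM).

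Trophoblast was then compared with embryonic cells within each library. At MS-LS 3 of the 6 members with enough UMIs were called, with Dnmt3l higher and Dnmt3a and Dnmt3b lower, where 17.6% of 6883 genes were called. At OB-EB 2 of 6 were called, Dnmt3a and Tet3, both lower, where 16.4% of 5403 genes were called, and at EHF 3 of 7, with Dnmt3l higher and Dnmt3a and Tet3 lower, where 20% of 7892 genes were called. Tet2 was under the minimum of UMIs throughout, as were Tet3 at MS-LS and Dnmt3l at OB-EB. The median log2 ratio of the members tested was -0.35, -0.71 and -0.026, and that of all genes tested 0.016, -0.021 and 0.019.

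The log2 ratio of Dnmt3l was 4.63 [3.96 to 5.38] at MS-LS and 5.41 [4.80 to 6.08] at EHF, 24.8-fold and 42.5-fold. At OB-EB it was 5.59 [4.53 to 6.86] on 66 and 8 UMIs, under the minimum for a call. The log2 ratio of Dnmt3a was -2.64 [-3.12 to -2.19], -1.93 [-2.82 to -1.16] and -2.18 [-2.69 to -1.71], on 42, 14 and 39 UMIs in trophoblast. The ratios of both genes had the same sign in the 3 libraries, which come from different embryos.

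Dnmt3b was lower in trophoblast with a log2 ratio of -1.02 [-1.11 to -0.94] at MS-LS, while the ratios of -0.75 [-0.89 to -0.62] at OB-EB and -0.20 [-0.29 to -0.11] at EHF were not called. The trophoblast level was 469, 535 and 399 CPM at the 3 stages and the embryonic level 954, 901 and 457 CPM. Embryonic mesoderm taken by itself was below trophoblast, with 327, 465 and 155 CPM. Some other embryonic classes were below it too, such as definitive endoderm-like cells with 383 CPM at MS-LS. Depth moved with these levels: within MS-LS trophoblast, Dnmt3b was 301, 349 and 578 CPM in cells of under 3000, 3000 to 6000 and over 6000 UMIs, and within MS-LS embryonic ectoderm 1186, 1162 and 1634 CPM. The deepest ectoderm cells were also the highest at OB-EB (979, 1224 and 1945 CPM) and EHF (539, 614 and 774 CPM). With cells of 3000 to 6000 UMIs alone, a band chosen after the data were seen, the ratio was -1.27, -0.91 and 0.11 at MS-LS, OB-EB and EHF, so the small difference at EHF turned its sign. At MS-LS the ratio passed 2-fold in 8 of 12 alternative settings and was -0.71 with classes weighted equally.

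Trophoblast also carried UMIs of the 8 epiblast markers, which summed to 621, 864 and 545 CPM there and to 2288, 1796 and 965 CPM in embryonic ectoderm, and extraembryonic ectoderm is known to express some of them. Their part in the Dnmt3b level of trophoblast was not tested. Tet3 was lower in trophoblast at OB-EB (-1.72 [-3.37 to -0.44], on 5 and 96 UMIs) and EHF (-1.27 [-1.84 to -0.74], on 34 and 204 UMIs), and at MS-LS it was -0.83 [-1.67 to -0.056] with fewer than 100 UMIs. Tet1 was not called, with log2 ratios of -0.77 [-1.18 to -0.38] at MS-LS, -0.67 [-1.28 to -0.12] at OB-EB and -0.026 [-0.48 to 0.41] at EHF. Its ratio passed 2-fold in 2 of 12 alternative settings at MS-LS and 1 of 12 at OB-EB. In cells called female by their Xist and Y-linked UMIs the Tet1 ratio was -1.31 at MS-LS, on 16 and 105 UMIs. In cells called male it was -0.33 there, on 22 and 81 UMIs. At OB-EB it was -2.59 in female-called cells, on only 3 and 89 UMIs. Male-called cells at OB-EB had 30.6 CPM of Tet1 in trophoblast and 51.7 CPM in embryonic cells, on 5 and 63 UMIs.

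In visceral endoderm, the tissue that surrounds the embryo and later lines the yolk sac, Dnmt3a and Dnmt3b were lower than in embryonic cells at MS-LS and OB-EB (2 of 6 members called at each stage, against 29.5% and 26.4% of genes) and Dnmt3b alone at EHF (1 of 6, against 31.8%). Dnmt3b had 330.2, 296 and 184 CPM there, with log2 ratios of -1.53 [-1.62 to -1.44], -1.60 [-1.76 to -1.45] and -1.32 [-1.47 to -1.17]. With classes weighted equally the last of these was -0.97, below 2-fold. Dnmt3a had 24.5, 14.9 and 28.6 CPM, with log2 ratios of -1.79 [-2.14 to -1.46], -1.94 [-2.71 to -1.25] and -0.83 [-1.23 to -0.45]. Embryonic mesoderm taken by itself was nearer to these levels, with 327, 465 and 155 CPM of Dnmt3b and 30.6, 44.4 and 35.4 CPM of Dnmt3a. No member was called higher in visceral endoderm, and among members with at least 100 UMIs the highest ratio was that of Tet3 at MS-LS, 0.75 [0.23 to 1.27]. Member medians were -0.086, -0.15 and -0.37 beside 0.069, -0.093 and -0.16 for all genes.

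Within the embryo proper, mesoderm was compared with ectoderm. Dnmt3b was lower in mesoderm at each stage, with 327, 465 and 155 CPM against 1361, 1200.0 and 719.7 CPM, log2 ratios of -2.06 [-2.18 to -1.93], -1.37 [-1.48 to -1.25] and -2.22 [-2.35 to -2.09]. These ratios were at the 0.961, 1.32 and 0.505 percentile of the 4786, 4461 and 6539 genes tested. Dnmt3a was lower at MS-LS by -2.02 [-2.45 to -1.61] and by less than 2-fold later (-0.66 and -0.89), so that 2 of 5, 1 of 5 and 1 of 6 members were called where 6.67%, 6.23% and 5.20% of genes were. The member medians were -0.81, -0.11 and -0.60 beside -0.001, 0.10 and -0.001 for all genes. None of the 8 genes was among the markers or the genes used for clustering.

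**Figure D5:**
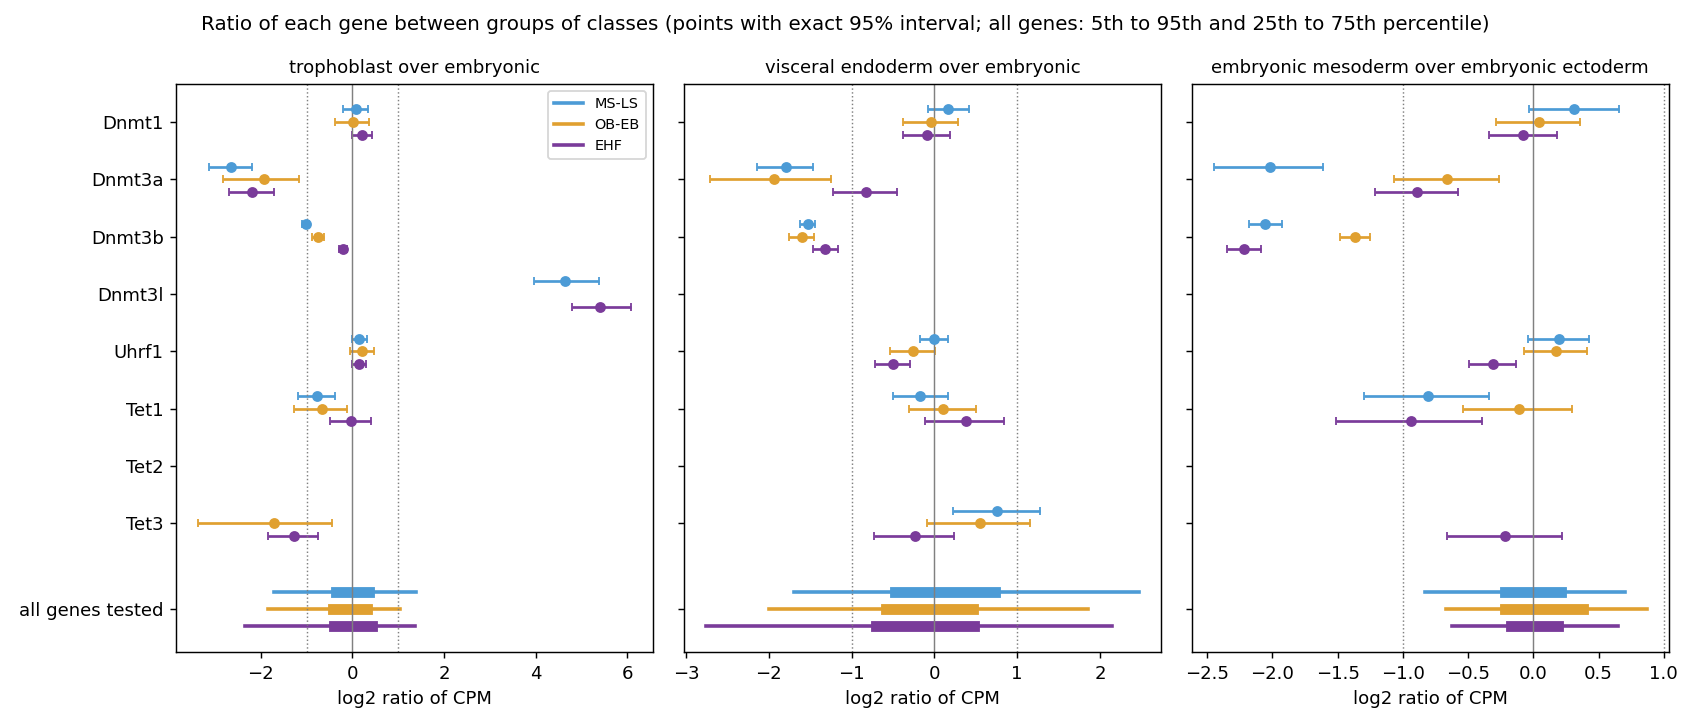
Log2 ratio of CPM (x axis) of each gene with at least 100 UMIs between trophoblast and embryonic cells, visceral endoderm and embryonic cells, and embryonic mesoderm and ectoderm, coloured by stage, with exact 95% intervals. Dotted lines mark 2-fold, and the bars at the bottom span the 5th to 95th (thin) and 25th to 75th (thick) percentile of all genes tested. Dnmt3l lies at 4.63 and 5.41 in trophoblast, and Dnmt3b left of the thin bar in mesoderm at all 3 stages.

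The same groups were compared between the MS-LS and EHF libraries, which also differ in embryos, depth and the time from tamoxifen to dissection. The median of all genes tested was shifted by 0.20 in trophoblast, 0.039 in visceral endoderm, 0.24 in ectoderm and 0.21 in mesoderm, and calls were made on the ratios without subtracting these shifts. Of all genes called, 65.1% were higher at EHF in trophoblast, 69.5% in ectoderm and 69.4% in mesoderm, against 40.4%, 47.6% and 51.9% after the shift was subtracted. Ectoderm and mesoderm also held different classes at these stages. Ectoderm was the epiblast-like class alone at MS-LS and neuroectoderm-like and caudal epiblast-like classes at EHF, and mesoderm was nascent mesoderm-like cells alone at MS-LS and cardiac, presomitic and paraxial mesoderm-like classes at EHF, so stage and class cannot be told apart for the calls in these groups. In trophoblast 0 of 5 members were called, where 11.0% of genes were, and Dnmt3l had the largest ratio, 0.88 [0.62 to 1.13], from 61.5 to 113 CPM. In visceral endoderm 0 of 6 were called (8.78% of genes), with Dnmt3b at -0.85 [-1.01 to -0.68].

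In ectoderm 2 of 6 members were called, where 14.2% of genes were. Tet3 was 2.71-fold higher at EHF, from 9.02 to 24.5 CPM with 16.7 CPM at OB-EB, a log2 ratio of 1.44 [0.87 to 2.04]. Tet1 was lower, at 46.7, 50.1 and 21.9 CPM, with a ratio of -1.09 [-1.46 to -0.73], and it passed 2-fold in 7 of 12 alternative settings (-1.36 to -0.88). Dnmt3a and Dnmt3b were each at -0.92, below 2-fold, and each at -1.16, past 2-fold, after the shift of all genes was subtracted. In mesoderm 1 of 4 members was called, Dnmt3b, lower with a log2 ratio of -1.08 [-1.25 to -0.91], where 14.8% of genes were called, and this ratio passed 2-fold in 9 of 12 settings (-1.23 to -0.82). Tet3 had 5 UMIs in MS-LS and 72 UMIs in EHF mesoderm, 2.84 and 21.1 CPM, with a log2 ratio of 2.89 [1.60 to 4.56] under the minimum for a call. Member medians were 0.14, -0.18, -0.29 and -0.075 in the 4 groups.

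Genes that work with these enzymes were grouped in lists of methyl-CpG readers, partners of maintenance methylation, repair and partners of oxidised methylcytosine, histone enzymes tied to DNA methylation and methyl donor supply. In visceral endoderm, 3 of 7, 4 of 7 and 5 of 7 tested partners of maintenance were lower than in embryonic cells at MS-LS, OB-EB and EHF and none was higher, where 10.6%, 13.5% and 17.6% of all genes were lower. The list medians were -0.87, -1.19 and -1.43, beside 0.069, -0.093 and -0.16 for all genes. Cdca7l and Cdca7 led these, Cdca7 being an activator of the remodeller Hells that helps maintain methylation. Cdca7l had 4.13 CPM in visceral endoderm and 33.9 CPM in embryonic cells at MS-LS, a log2 ratio of -3.03 [-3.93 to -2.26]. The S phase list had 2 of 28, 9 of 26 and 8 of 28 genes lower there and 1, 1 and 0 higher at MS-LS, OB-EB and EHF. Its medians were -0.49, -0.71 and -0.76, and its part in the partners' levels was not tested.

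In trophoblast the partners list had 2 of 7, 1 of 7 and 2 of 8 members lower and none higher, where 9.56%, 11.2% and 11.8% of all genes were lower, and Cdca7l was among them at each stage. Of the repair genes tested in trophoblast, 2 of 6, 1 of 5 and 2 of 7 were higher at MS-LS, OB-EB and EHF. Only Xrcc1, at EHF, was lower. The list medians were 0.25, -0.049 and -0.38, and 17.6%, 16.4% and 20% of all genes were called. Gadd45g, a stress-response protein tied to repair-based demethylation, was among the higher genes at each stage. Its log2 ratios were 2.76 [2.20 to 3.34], 1.91 [1.30 to 2.49] and 2.0 [1.63 to 2.38]. In visceral endoderm 1 of 6, 0 of 4 and 1 of 6 tested repair genes were higher, and 1 at each stage, Apex1, was lower. The list medians there were -0.20, -0.33 and -0.35, and 29.5%, 26.4% and 31.8% of all genes were called. The higher gene was Gadd45g, at MS-LS (2.53 [1.97 to 3.11]) and EHF (1.72 [1.28 to 2.15]), with 19.9 against 11.7 CPM, not called, at OB-EB. In trophoblast its relative Gadd45b was higher at EHF by 3.88 [3.31 to 4.5], with 49.4 against 3.35 CPM. At MS-LS and OB-EB Gadd45b was under the minimum for a call, with 21.5 against 1.24 CPM (66 and 10 UMIs) and 23.6 against 0.916 CPM (22 and 5 UMIs). Of 8 methyl donor genes tested in trophoblast at each stage, 1, Mat2b, was lower and 1, Shmt1, was higher. The list medians were 0.15, -0.011 and -0.097. Mat2b, the regulatory subunit of the enzyme that makes the methyl donor S-adenosylmethionine, had log2 ratios of -1.64, -2.25 and -1.44. The other higher repair gene at MS-LS was Ogt, which binds Tet proteins, with a log2 ratio of 1.33 [1.12 to 1.54]. Of 8 histone enzymes tested in trophoblast at each stage, Suv39h1 was lower at MS-LS and Kdm2b at OB-EB. None was called at EHF, and the list medians were -0.18, -0.48 and -0.21. Kdm2b, a CpG island-binding demethylase, had a log2 ratio of -1.58. Shmt1, an enzyme of folate metabolism, was higher at each stage, with 1.03 [0.75 to 1.31], 1.20 [0.77 to 1.61] and 1.43 [1.21 to 1.66].

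Methyl-CpG readers had no called gene in trophoblast at MS-LS and OB-EB (of 5 and 4 tested) and Uhrf2, the relative of Uhrf1, lower at EHF. In visceral endoderm 0 of 5, 1 of 4 and 3 of 4 readers were lower, beside the same 10.6%, 13.5% and 17.6% of all genes. The histone enzyme Suv39h1 was higher in visceral endoderm at MS-LS (1.52 [1.18 to 1.86]) and OB-EB (1.18 [0.64 to 1.70]), and Kdm2b was lower there at OB-EB (-1.65 [-2.22 to -1.13]) and EHF (-2.02 [-2.50 to -1.57]). Between mesoderm and ectoderm none of the 5 lists, with 2 to 8 genes tested in each, had a called gene at any stage. Of all genes 6.67%, 6.23% and 5.20% were called there at MS-LS, OB-EB and EHF.

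Between MS-LS and EHF, Pcna, the replication clamp to which Dnmt1 and Uhrf1 are tied, was lower at EHF in all 4 groups, with log2 ratios of -1.57 [-1.77 to -1.37] in trophoblast, -1.49 [-1.77 to -1.22] in visceral endoderm, -1.41 [-1.57 to -1.25] in ectoderm and -1.67 [-1.89 to -1.45] in mesoderm. Pcna was the only called gene among the 6, 6, 7 and 7 partners of maintenance tested in these groups. The share of all genes called was 11.0%, 8.78%, 14.2% and 14.8%. In the same order of groups Pcna had 243, 172, 264 and 264 CPM at MS-LS and 218, 173, 246 and 275 CPM at OB-EB. At EHF it had 81.6, 61.2, 99.3 and 83.1 CPM. In ectoderm the median of the partners list was 0.45. Uhrf2 was higher in EHF ectoderm by 1.72 [1.45 to 1.99], with 127 against 38.7 CPM. Of the S phase genes, Clspn was higher in trophoblast (1.29), ectoderm (1.40) and mesoderm (1.09), and in ectoderm Dtl (1.06) and Fen1 (1.05) were higher and Pola1 lower (-1.10). These were 1 of 28 S phase genes tested in trophoblast and 1 of 27 in mesoderm, where 11.0% and 14.8% of all genes were called. In ectoderm 3 of 28 were higher and 1 lower, where 14.2% of all genes were called.

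Lastly, the pattern of each member over the 28 classes was compared with those of 6573 genes by the Pearson correlation of log2(CPM + 10). Classes share libraries and depth, so the correlations are descriptions. Dnmt3l was most like Gm9 (r = 0.95), Elf5 (0.95) and AU018091 (0.93), Elf5 being a trophoblast transcription factor that was also a marker of the class. Dnmt3b was most like Pim2 (0.89), Zic5 (0.86) and Rnf145 (0.85), and Dnmt3a like Tcp11l1 (0.86), Gng3 (0.82) and Pou5f1 (0.82), of which Pim2 and Pou5f1 were markers of the epiblast class. Tet1 was nearest to Rnf44 and Amt (0.82 each) and Khsrp (0.81), and Tet3 to Ccdc34 (0.78), Lman2l and Atxn7l3b (0.76 each).

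Dnmt1 was most like Msl2 (0.82), Supt6 and Luc7l2 (0.77 each), and Uhrf1 like Snhg4 (0.77), Ywhag and Zfp518b (0.76 each), and for Tet2 the nearest was Grb10 (0.70), followed by Rps6kb1 (0.66) and Zfp318 (0.65). Among the members themselves, the highest correlation was between Dnmt3b and Tet1 (0.71), followed by Dnmt3a and Dnmt3b (0.62). The correlation of Dnmt3a with Dnmt3l was -0.46 and that of Dnmt1 with Uhrf1 was 0.48.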

How the data were processed

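Whole mouse embryos of 3 stages were profiled by single-cell RNA sequencing with the Chromium Single Cell 3′ assay. The authors aligned reads and counted UMIs with Cell Ranger 3.0.2 against GRCm38 with the tdTomato sequence added, filtered cells by genes, UMIs and mitochondrial share, and deposited counts per gene and cell without normalization. The tools named in the submitters' processing notes also include R 3.6.1 and Seurat 3. The deposited cells had at least 1001, 1003 and 1004 UMIs and 531, 505 and 569 genes at MS-LS, OB-EB and EHF. The 2 EHF tables held the same counts (65128160 of 65128160 values, with 21 genes named differently) and were used as 1 library. Libraries shared 12 to 18 cell barcodes in pairs.

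Clusters were made per library, following the study's methods, in R 4.3.3 with Seurat 5.3.0 (log-normalised counts, scale factor of 10000, 2000 variable genes, 50 principal components, resolution of 4.5 for EHF). No resolution was given for the earlier libraries in the sources used here, and 2 was used. The 8 members and the genes of the pathway and cell cycle lists were not allowed among the variable genes. Naming a cluster after the best of 22 cell types needed at least 3 detected markers, a marker being detected with a UMI in at least 20% of cells and at least 2 times the level of the other cells, with a margin of 0.2 (log2) over the next type and no more markers of another type among its 10 leading genes. Scrublet (scanpy 1.11.5) marked 6, 0 and 13 cells as doublets, too few to be relied on, so the highest 5% of scores (182, 200 and 175 cells) were left out as an alternative.

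UMIs were summed over the cells of a group and divided by the group's total. Poisson, binomial (Clopper-Pearson) and conditional binomial intervals at 95% were computed with scipy 1.17.1. The ratio intervals were tried on simulated Poisson counts without spread between cells or embryos, which is the model they assume. That trial checks the computation only and cannot show how the intervals behave where such spread exists. A group with no UMI was set at a floor of 3 UMIs for ratios. The named genes are the members, for each member the 3 genes of most similar pattern over the classes (at least 500 UMIs in all and 20 CPM in a class), and from the pathway lists at most 2 called genes per direction and comparison. Some further values of genes of these lists are given outside that rule, such as those of Dtl and Fen1. The members and lists were chosen with earlier results of these data known. Cells counted as S-leaning had more UMIs of the S phase list, relative to its mean in the library, than of the G2 and M phase list. Alternatives were coarser and finer clustering, members allowed among the variable genes, another naming rule, per-cell means, equal weights of classes, minimum UMIs, folds, doublets and cells called by sex.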

Additional observations from a re-analysis of the deposited data

How the results depend on the processing

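No paired analysis was possible because each stage is 1 library, and for the same reason no replicate could be left out. Each value below is a number of members called. No member that was called changed direction under any of the alternatives. In trophoblast against embryonic cells, male-called cells gave 1 at MS-LS, 0 at OB-EB and 0 at EHF, and at OB-EB finer clustering, leaving out the highest 5% of doublet scores, at least 2000 UMIs per cell and female-called cells each gave 1 and a fold of 1.5 gave 4. In visceral endoderm, a minimum of 20 UMIs gave 4 at MS-LS and 2 at EHF, male-called cells gave 1 at OB-EB, and at EHF equal weights of classes gave 0 and a fold of 1.5 gave 2. In mesoderm against ectoderm, OB-EB gave 2 with finer clustering, with the best-scoring name for every cluster and with a fold of 1.5, and EHF gave 2 with coarser or finer clustering, the mean of CPM per cell, female-called cells and a minimum of 20 UMIs, and 3 with a fold of 1.5. Between MS-LS and EHF, trophoblast gave 1 with a fold of 1.5 and with a minimum of 20 UMIs, and visceral endoderm gave 1 with male-called cells and with a fold of 1.5. Ectoderm gave 1 with coarser or finer clustering, the mean of CPM per cell, the best-scoring names, female-called cells and male-called cells, and 4 with a fold of 1.5. Mesoderm gave 0 with members and pathway genes allowed among the variable genes, with female-called cells and with male-called cells, 2 with the best-scoring names and 3 with a minimum of 20 UMIs. Fewer cells and UMIs enter the settings by sex, doublets and depth, and for the others the cause was not tested.

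Cells of 3000 to 6000 UMIs alone, a setting chosen after the data were seen, gave 1 in trophoblast at OB-EB and at EHF, 2 in visceral endoderm at EHF, 2 in mesoderm against ectoderm at EHF and 1 in ectoderm between MS-LS and EHF. Subtracting the median of all genes from the ratios between MS-LS and EHF, also chosen after the data were seen, gave 4 in ectoderm and left the count unchanged in the other 3 groups. Over all settings 141 of 185 such counts stayed within 1.5 times the main count and 44 moved. The log2 ratio of Dnmt3l in trophoblast ranged from 3.77 to 6.13 at MS-LS and from 4.24 to 5.86 at EHF, and that of Dnmt3a from -3.90 to -2.30, -2.56 to -1.05 and -3.01 to -1.62. Dnmt3b in trophoblast at MS-LS ranged from -1.44 to -0.71 and passed 2-fold in 8 of 12 settings, and at EHF it ranged from -0.31 to 0.14. Tet1 in ectoderm between the stages passed 2-fold in 7 of 12 settings (-1.36 to -0.88), Tet3 in 12 of 12 (1.10 to 2.23), and Dnmt3b in mesoderm in 9 of 12 (-1.23 to -0.82). Coarser clustering gave no mesoderm class at OB-EB, so that comparison has no value under it. With a published list of 1001 epiblast cells in place of the 721 rebuilt here (688 in both), Dnmt3b at MS-LS was 1247 CPM in place of 1361 CPM and the other 7 members stayed within their intervals. With at least 2000 UMIs per cell all 57 cell cycle ratios stayed within their intervals.

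Depth limits Tet2 at every stage, and Tet3 and Dnmt3l in classes with few cells, whose levels rest on under 20 UMIs.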

Other observations

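The embryos of a library were not told apart, and cells were called female with a UMI of Xist and none of the Y-linked genes, or male with the reverse. There were 869 female-called and 812 male-called cells at MS-LS, 1120 and 653 at OB-EB and 1870 and 312 at EHF. In trophoblast, Dnmt3b was 381 CPM in female-called and 580.1 CPM in male-called cells at MS-LS, a log2 ratio of -0.60 [-0.81 to -0.40], and 465 against 777 CPM at OB-EB, a ratio of -0.74 [-1.08 to -0.39]. At EHF it was 406 against 435 CPM, a ratio of -0.099 [-0.34 to 0.15]. Uhrf1 in MS-LS trophoblast was 105 against 198 CPM (-0.91 [-1.29 to -0.53]), and Dnmt3l there was 69.6 against 62.4 CPM (0.16 [-0.41 to 0.73]). Over the groups with enough UMIs, Dnmt3b was higher in male-called cells beyond counting error in 4 of 15 and in female-called cells in 0 of 15. Male-called trophoblast cells were deeper, with median UMIs of 6558, 3920.0 and 7758 at MS-LS, OB-EB and EHF against 5399, 3414 and 7159 in female-called cells, and the part of depth in these ratios was not tested. The number of embryos behind each set of cells is not known from these tables, so sex and embryo cannot be told apart.

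Cells with UMIs of at least 2 of the germ cell genes Dppa3, Nanos3 and Dnd1 numbered 1, 0 and 4 in the 3 libraries. In the 4 of EHF 5 Dnmt3b UMIs were found (179 CPM [58.1 to 418]). All embryonic classes, ectoderm included, and extraembryonic mesoderm together had 426 CPM in 1522 cells. Embryonic mesoderm alone had 155 CPM at EHF, and extraembryonic mesoderm-like cells 84.6 CPM. Of the unnamed clusters, a group of 33 EHF cells led by Rhox9 and Rhox6 had 93.1 CPM of Dnmt3l on 6 UMIs. Of Dnmt3b, an unnamed cluster of 414 cells had 789 CPM at MS-LS and 1 of 271 cells, led by Sp8, Pim2, Sox2 and Pou5f1, had 1104 CPM at OB-EB.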
